A study of Mus musculus with 12 samples.

Results

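The 10 genes described here encode the transcription factors that mark the naive state of mouse embryonic stem cells (ESCs): Klf2, Klf4, Klf5, Esrrb, Nr0b1, Nr5a2, Tfcp2l1, Tbx3, Zfp42 and Prdm14. They were found by their Ensembl gene identifiers, version removed, in a ribosome profiling count table of 22462 genes. All 10 were in the table, and all 10 passed the filter on low values that left 11750 genes for testing. The medium of the ESCs was Knockout DMEM containing 15% serum from fetal calves, to which LIF and the 2i inhibitors PD0325901 and CHIR99021 had been added. Epiblast-like cells (EpiLCs) came from ESC cultures about 56 hours after LIF and 2i had been withdrawn, a step taken 24 hours after seeding 400000 cells. There were 12 libraries in 4 groups of 3, namely total RNA and ribosome protected fragments (RPF), the stretches of mRNA that ribosomes shield from nuclease, of ESCs and of EpiLCs. The labels name no strain, genotype or line for these libraries, and the study's materials list a V6.5 reporter line, with fluorescent markers at microRNA loci, for its differentiation work. The study describes its ribosome profiling replicates as biological and the total mRNA as matched to the footprints. The labels do not say whether an RPF and a total RNA library of the same number share a culture.

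Naive pluripotency is the state of the preimplantation epiblast, and in culture it is held by LIF and by the 2i inhibitors. LIF acts through STAT3, which turns on Klf4 and Tfcp2l1. CHIR99021 blocks GSK3 and so lifts the repression that Tcf7l1 places on genes such as Esrrb, Klf2 and Tfcp2l1, while PD0325901 blocks the MEK step of the FGF and ERK pathway that pushes cells out of the state. The factors bind each other's regulatory regions and those of Pou5f1, Sox2 and Nanog, and they are lost as the epiblast turns formative. The question for these libraries was how the mRNA and the ribosome footprints of each factor differed between ESCs and EpiLCs, and whether the ratio of the footprints to the mRNA differed too.

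Because the factors moved together in these libraries, their promoters were read for letters that members of this network are known to bind. The RefSeq promoter table (GRCm38.p6, 250 bases before to 50 bases after a start site) held 9 windows for 7 of the genes, with none for Klf5, Tbx3 and Prdm14. The windows below give an example of each motif that was found, with 2 for the TATA box, on the strand of the gene and with the matched letters in capitals. Capitals that read as the reverse complement of the motif are matches on the opposite strand.
Zfp42, OCT site, chr8:43307176-43307205, minus strand: ctgaagaggcATTTGCATaactgagcaaga
Zfp42, CACCC box, chr8:43307065-43307094, minus strand: acatccccgcCCACACCCaccttgagcgct
Esrrb, STAT site, chr12:86360929-86360958, plus strand: aacggaaactTTCGTGGAAagcacttgagc
Klf2, KLF and GC box, chr8:72319033-72319062, plus strand: tataaggcctGGGTGGGccgggccacagca
Klf4, E box, chr4:55532638-55532667, minus strand: cccccgccccCACGTGcgcggagtttgttt
Tfcp2l1, TATA box, chr1:118627907-118627936, plus strand: cctgacggccTATAAAaggcgccggccgca
Nr0b1, TATA box, chrX:86191733-86191762, plus strand: gcgcattcagTATAAAtaagtcccaagcgg

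Both strands were searched for 8 motifs. The KLF and GC box, spelled GGGNGGG, was in 6 of the 9 windows (Esrrb, Klf2, Klf4, Nr5a2 and Zfp42) and in 48.1% of all 32851 windows of the table. The OCT letters ATGCAAAT occurred in 1.74% of all windows and in the Zfp42 window, with their first base 186 bases before the start site. The CACCC letters GGGTGTGG occurred in 3.56% of all windows and, among the factors, in Zfp42 alone, where the match overlapped a KLF and GC box. The STAT letters TTCNNNGAA occurred in 8.3% of all windows and in 1 of the Esrrb windows, which belongs to an upstream start site. The E box CACGTG was in 7.15% of all windows and in that of Klf4. The TATA letters TATAAA were in 13.6% of all windows and in those of Nr0b1, Nr5a2 (opposite strand) and Tfcp2l1, 28 bases before the start in Tfcp2l1 and 32 bases before it in Nr0b1. The ERR letters TCAAGGTCA (0.423% of all windows) and the TCF letters CTTTGAT (3.73%) were in none of the 9 windows. The windows differed widely in base composition, from 42.0% G and C in an upstream Nr5a2 window to 74.3% in Klf4, against a median of 52.7% over the table. These matches are letters in a window and were not measured as binding.

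All 10 factors were lower in EpiLCs than in ESCs, in total RNA and in RPF, in every library. The median log2 fold change (EpiLC over ESC) of the 10 was -5.05 in total RNA and -5.16 in RPF, while the median of all tested genes was 0.03 and 0.01. Calls needed an adjusted p under 0.05 in voom and limma together with a change of more than 1 on the log2 scale, and 10 of 10 factors were called lower in both assays. Among all tested genes, 9.7% were called lower and 14.6% higher in total RNA, and 10.6% were called lower and 15.4% higher in RPF. For no factor and in neither assay did an EpiLC library reach the lowest ESC library. The share of all tested genes that separate in this way was not counted. In bulk RNA a smaller share of cells that express a factor and less of its RNA per cell cannot be told apart. The 10 calls held in both assays under each alternative setting that was run.

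**Figure D1:**
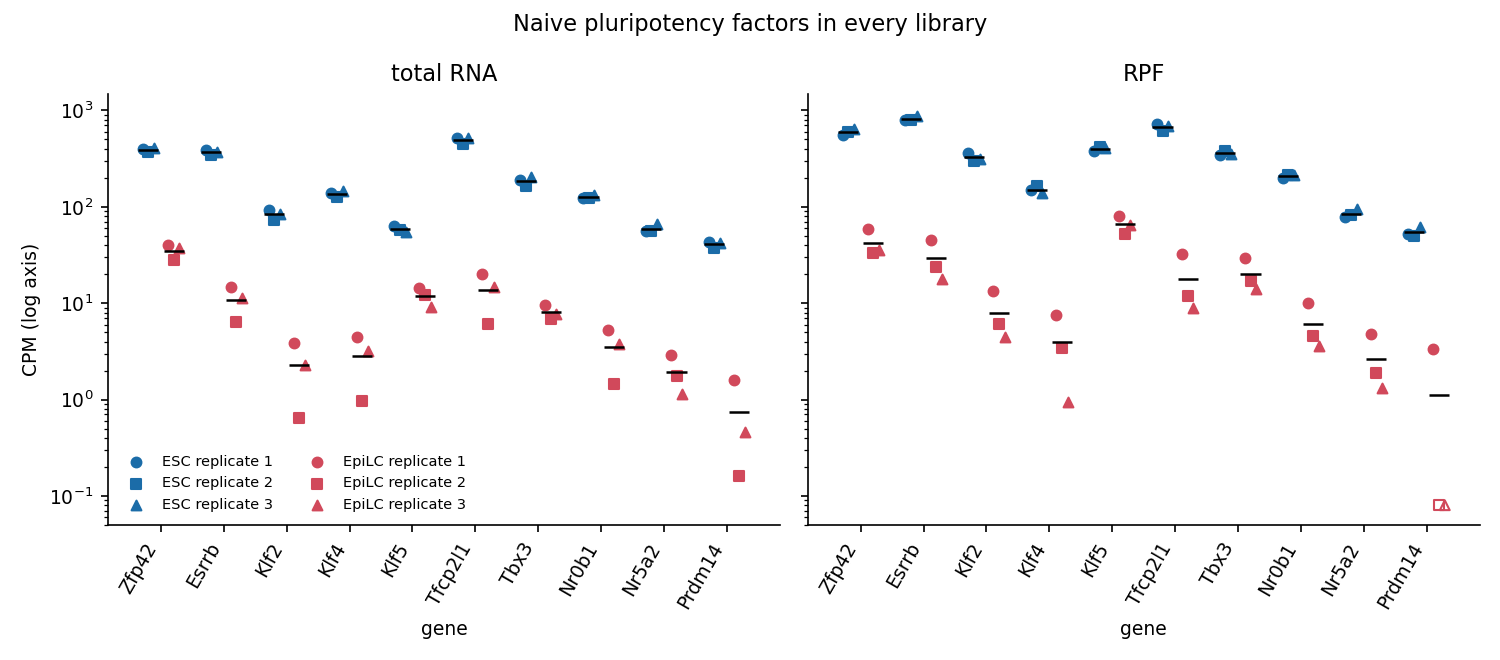
Level in CPM (log axis) of each naive factor in the 12 libraries, total RNA on the left and RPF on the right, with ESC in blue, EpiLC in red, a symbol per replicate number and a black bar at the group mean. The open symbols at the foot of the RPF panel stand for the 2 EpiLC libraries in which Prdm14 had 0 counts, and no red symbol of a gene reaches its blue ones.

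The RPF libraries were the shallower ones, with 2681439 to 5413144 counts for EpiLCs and 4777262 to 11359352 for ESCs, against 6188838 to 14655015 and 11491044 to 13477432 for total RNA. Levels are given in CPM, a gene's counts relative to the library total after scaling with TMM factors. The floor of detection was set at 3 counts per library, which equalled 0.2 to 1.141 CPM. Floors of this kind cover counting error only. Markers of other cell types were summed in each library. The 6 primitive endoderm markers summed to 3.94 to 10.6 CPM over all libraries, and 0 of the 2 tested were called. The 5 trophectoderm markers summed to 7.5 to 33.5 CPM, with Krt7 called higher and Eomes lower in both assays and Elf5 at 0 in every library. The 5 markers of 2-cell-like cells summed to 1.04 to 9.45 CPM, and Zscan4d, the 1 tested, was called lower in RPF and not in total RNA. The 5 mesendoderm markers summed to 9.69 to 11.5 CPM in ESC and 4.93 to 7.81 CPM in EpiLC total RNA, and the 2 tested, Eomes and Gsc, were called lower. In ESC total RNA most of the sum came from Eomes (mean 5.92 CPM) and Gsc (4.22 CPM). The untested T and Mixl1 had higher total RNA means in EpiLCs (0.322 to 1.78 and 0.211 to 0.962 CPM). The untested Mesp1 had a lower one (0.0805 to 0.0223 CPM). The 4 neural ectoderm markers summed to 81.7 to 94.9 CPM and 60.9 to 71.5 CPM in total RNA and to 121.5 to 131.3 CPM and 92.7 to 119 CPM in RPF, most of it from Tubb3, and 1 of the 3 tested, Pax6, was called higher. The 7 fibroblast markers moved with the cell type, from 1.97 to 2.31 CPM in ESC to 12.8 to 14.9 CPM in EpiLC total RNA, and from 6.38 to 7.16 CPM to 34.3 to 41.1 CPM in RPF. Of these, Col1a1, Dcn and Thy1 passed the filter and were called higher in both assays, Postn was at 0 in every library and Lum at 0 in all total RNA libraries. Their part in the fall of the naive factors was not tested.

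The Krüppel-like factors Klf2, Klf4 and Klf5 bind the same GC-rich letters and stand in for each other in holding ESCs naive. Klf2 (ENSMUSG00000055148.7, chromosome 8, 72319123 to 72320919 on mm10, the span of its counted coding bases) is the factor whose protein ERK signalling destabilises. Its total RNA level was 93.0, 73.3 and 85.0 CPM in ESC replicates 1 to 3 and 3.87, 0.641 and 2.29 CPM in EpiLC replicates 1 to 3. Its RPF level was 364, 299 and 312 CPM in ESC and 13.3, 6.08 and 4.5 CPM in EpiLC. In both assays the groups lay far apart, with EpiLC replicate 1 the highest of its group. The log2 fold change of Klf2 was -5.18 ± 0.42 (SE) in total RNA, with a limma adjusted p of 7.27e-11, and -5.47 ± 0.33 in RPF. Without EpiLC total RNA replicate 1 its total RNA change was -5.88, and with the GC correction its RPF change was -6.07. EpiLC total RNA replicate 2 held 4 Klf2 reads, near the floor of 3, and without it the total RNA change was -4.68.

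Klf4 (ENSMUSG00000003032.8, chromosome 4, 55528125 to 55531710), a target of STAT3 and one of the reprogramming factors, had 139, 126 and 144 CPM in ESC total RNA and 4.41, 0.961 and 3.21 CPM in EpiLC total RNA. In RPF it had 149, 163 and 138 CPM in ESC and 7.47, 3.42 and 0.938 CPM in EpiLC. The last of these libraries held 5 Klf4 reads, near the floor of 3. The log2 fold change of Klf4 was -5.52 ± 0.36 (SE, limma adjusted p 1.05e-12) in total RNA and -5.69 ± 0.48 in RPF. Without EpiLC RPF replicate 1 its RPF change was -6.53, and without EpiLC RPF replicate 3 it was -4.71, so single libraries moved the size of this fall by over 1.5 times while its direction and call held.

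Klf5 (ENSMUSG00000005148.7, chromosome 14, 99299040 to 99313329), which is also used in the trophectoderm, kept the largest share of its ESC level. Its total RNA level was 63.5, 57.5 and 54.9 CPM in ESC and 14.3, 12.02 and 9.05 CPM in EpiLC. Its RPF level was 377, 417 and 411 CPM in ESC and 80.7, 52.9 and 64.2 CPM in EpiLC. An average of 20.1% ± 4.48 (SD, n = 3) of the ESC total RNA level and 16.4% ± 3.48 of the RPF level was left in EpiLCs. The log2 fold change was -2.28 in total RNA (95% confidence interval -2.61 to -1.96) and -2.58 in RPF (-2.81 to -2.35). Neither interval touched that of any other naive factor in the same assay.

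Esrrb, Nr0b1 and Nr5a2 are orphan nuclear receptors. Esrrb (ENSMUSG00000021255.17, chromosome 12, 86421960 to 86519065), the main target released by GSK3 inhibition, had 386, 341 and 372 CPM in ESC total RNA and 14.8, 6.41 and 11.3 CPM in EpiLC total RNA. Its RPF level was 790.3, 800.3 and 879.8 CPM in ESC, the highest of the 10 factors per library in CPM, and 45.4, 24.0 and 18.02 CPM in EpiLC. Again EpiLC replicate 1 was the highest of its group in both assays. On the log2 scale Esrrb changed by -4.998 ± 0.21 (SE, limma adjusted p 3.13e-16) in total RNA and by -4.92 ± 0.20 in RPF.

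Nr0b1 (ENSMUSG00000025056.4, chromosome X, 86191846 to 86195595), also called Dax1, lacks a DNA-binding zinc finger and acts by contact with other receptors. It had 125, 124 and 132 CPM in ESC total RNA, the tightest of the factors, and 5.27, 1.44 and 3.78 CPM in EpiLC. In RPF its levels were 198, 215 and 212 CPM in ESC and 10.2, 4.56 and 3.57 CPM in EpiLC. Its log2 fold change was -5.10 ± 0.28 in total RNA and -5.19 ± 0.31 in RPF. Nr5a2 (ENSMUSG00000026398.14, chromosome 1, 136845463 to 136960245), a receptor that binds regulatory sequence of Pou5f1, was scarcer, with 55.5, 56.0 and 65.8 CPM in ESC total RNA and 2.87, 1.76 and 1.15 CPM in EpiLC. Its RPF level fell from 78.3, 83.2 and 94.0 CPM to 4.77, 1.9 and 1.31 CPM. The changes of Nr5a2 were -4.86 ± 0.33 and -5.14 ± 0.43 on the log2 scale (limma adjusted p 3.27e-12 and 1.74e-10), and its RPF change was -5.75 without EpiLC RPF replicate 1.

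Tfcp2l1 (ENSMUSG00000026380.10, chromosome 1, 118628086 to 118677434) is a CP2-family factor downstream of both LIF and GSK3 inhibition. It had the most total RNA reads of the group in ESCs, with 521, 446 and 520.5 CPM, and 20.2, 6.09 and 14.8 CPM in EpiLC. In RPF it had 722, 605 and 683 CPM in ESC and 32.6, 11.8 and 8.82 CPM in EpiLC. Its changes were -5.12 ± 0.24 (SE, limma adjusted p 2.11e-15) in total RNA and -5.44 ± 0.32 in RPF on the log2 scale, and without EpiLC RPF replicate 1 the RPF change was -6.13. Tbx3 (ENSMUSG00000018604.18, chromosome 5, 119672061 to 119683092), a T-box repressor, went from 191, 166 and 206 CPM to 9.61, 6.89 and 7.68 CPM in total RNA. Its RPF level went from 344, 377 and 355 CPM to 29.2, 17.1 and 14.1 CPM. With changes of -4.47 ± 0.19 and -4.20 ± 0.19 it kept 4.3% ± 0.748 of its ESC total RNA level and 5.62% ± 2.24 of its RPF level (SD, n = 3).

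Zfp42 (ENSMUSG00000051176.6, chromosome 8, 43295596 to 43296417, coding sequence in 1 exon), also called Rex1, is a zinc finger protein related to YY1 and the usual reporter of the naive state. It had 397, 372 and 408 CPM in ESC total RNA and 39.8, 27.9 and 37.1 CPM in EpiLC total RNA. In RPF it had 561, 605 and 637 CPM in ESC and 58.5, 33.1 and 35.7 CPM in EpiLC. The log2 fold change of Zfp42 was -3.45 ± 0.12 (SE) in total RNA and -3.83 ± 0.14 in RPF. The gene kept 10.1%, 7.11% and 9.47% of its mean ESC total RNA level in EpiLC replicates 1 to 3, and 9.73%, 5.5% and 5.93% of its RPF level. These were the second largest remainders after those of Klf5 in both assays. The 95% confidence interval of its total RNA change, -3.69 to -3.21, stood apart from those of the other 9 factors, while its RPF interval, -4.12 to -3.54, overlapped that of Tbx3, -4.58 to -3.81.

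Prdm14 (ENSMUSG00000042414.7, chromosome 1, 13114260 to 13125790), a repressor of FGF signalling and of the de novo DNA methyltransferases, was the scarcest of the factors. It had 42.9, 37.2 and 42.1 CPM in ESC total RNA and 1.6, 0.16 and 0.458 CPM in EpiLC, the last 2 values resting on 1 and 4 reads. In RPF it had 52.4, 49.8 and 61.1 CPM in ESC. The EpiLC RPF libraries held 16 Prdm14 reads in replicate 1 and 0 in replicates 2 and 3, where the floor of 3 counts equals 1.141 and 0.563 CPM. Its fitted changes, -5.81 ± 0.61 (SE, limma adjusted p 9.04e-09) in total RNA and -7.13 ± 0.76 in RPF, were the least precise of the 10, and they rest on 29 total RNA and 16 RPF reads in all of the EpiLC libraries. The RPF change of Prdm14 was -5.44 in edgeR and -5.59 in DESeq2, -8.73 without EpiLC RPF replicate 1 and -5.90 without EpiLC RPF replicate 3, and its total RNA change was -6.83 without EpiLC total RNA replicate 1. Its RPF fall was the largest of the 10 in size in every setting run. Its total RNA fall was the largest in every setting but the GC correction with replicate block. There Prdm14 had -5.36, Klf2 -5.53 and Klf4 -5.64. The 95% confidence intervals of Prdm14 overlapped those of Klf2, Klf4, Tfcp2l1, Nr0b1 and Nr5a2 in both assays, so their order was not resolved. In total RNA the interval of Prdm14 also overlapped those of Esrrb and Tbx3. The intervals of Prdm14 against Klf4 were -7.08 to -4.54 against -6.26 to -4.78 in total RNA and -8.71 to -5.56 against -6.67 to -4.71 in RPF.

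**Figure D2:**
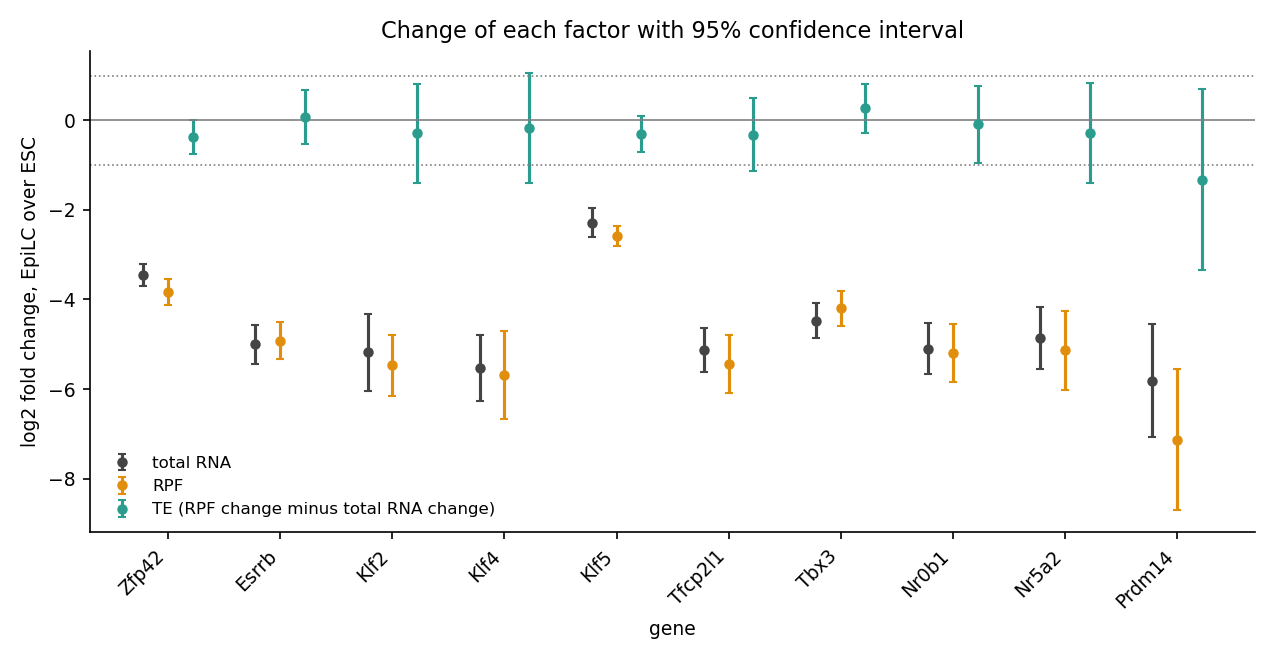
Log2 fold change of each naive factor (EpiLC over ESC) in total RNA, RPF and translational efficiency, from the model on 12 libraries, with bars for the 95% confidence interval and dotted lines at 1 and -1. The total RNA and RPF changes lie below -1 for all 10 factors, Klf5 stands apart at -2.28 and -2.58, and the intervals of translational efficiency cross 0 for each factor.

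Levels between factors were compared per length, as CPM per kilobase of counted coding sequence. In ESC total RNA the order of the levels was Zfp42 (477 ± 22.7, SD, n = 3), Tfcp2l1 (355 ± 31.1), Esrrb (274 ± 17.05), then Klf4 (96.9), Nr0b1 (92.4), Tbx3 (86.0) and Klf2 (82.1), and last Klf5 (45.2), Nr5a2 (36.1) and Prdm14 (24.8). Neighbours among Klf4, Nr0b1, Tbx3 and Klf2 had overlapping library ranges, and the other neighbours did not overlap. Zfp42 stood above 98.8% of tested genes on this scale and Prdm14 above 53.3%. In ESC RPF the order was Zfp42 (731 ± 46.3), Esrrb (616 ± 36.7), Tfcp2l1 (480.4 ± 42.6), Klf2 (319 ± 33.9), Klf5 (309.9 ± 16.8), Tbx3 (164), Nr0b1 (151), Klf4 (106), Nr5a2 (52.0) and Prdm14 (33.2). Klf2 and Klf5 overlapped there and no other neighbours did. Klf5 thus moved from the eighth place by total RNA to the fifth by RPF, and Klf4 from the fourth to the eighth.

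In EpiLC total RNA Zfp42 was at 42.5 ± 7.61 CPM per kilobase, apart from the next factor, Tfcp2l1, at 9.8 ± 5.09. Klf5 (9.09) and Esrrb (8.12) overlapped with their neighbours above. Below them came Tbx3 (3.7), Nr0b1 (2.55), Klf2 (2.22), Klf4 (2.03), Nr5a2 (1.18) and Prdm14 (0.451), each overlapping the next, while Esrrb and Tbx3 were apart. In EpiLC RPF the levels per length of Zfp42 (51.6 ± 17.01) and Klf5 (50.9 ± 10.8) overlapped and stood apart from Esrrb (21.8 ± 10.8), and all lower neighbours overlapped. Prdm14 was above 1.37% of tested genes in EpiLC total RNA.

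Taken as a sum, reads of the 10 factors made up 0.198% ± 0.0127 (SD, n = 3) of ESC total RNA counts and 0.357% ± 0.00549 of ESC RPF counts. In EpiLCs the share was 0.00922% ± 0.00272 of total RNA counts and 0.0195% ± 0.00773 of RPF counts. The makeup of that sum shifted with it. Klf5 went from 3.02% to 13.6% of the factors' reads in total RNA and from 10.9% to 34.97% in RPF. Zfp42 went from 20.2% to 39.4% in total RNA and from 16.3% to 21.8% in RPF. Tfcp2l1 went the other way, from 25.4% to 14.3% in total RNA and from 18.2% to 8.29% in RPF. The mean shares of Esrrb, Klf2, Klf4, Nr0b1, Nr5a2 and Prdm14 were also lower in EpiLCs in both assays. Esrrb, for example, went from 18.8% to 11.7% in total RNA and from 22.4% to 14.4% in RPF. Library ranges of the groups overlapped for Tbx3 alone, in both assays.

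Replicates of the EpiLCs spread more than those of the ESCs. The coefficient of variation over 3 libraries was 3.51% to 11.9% for the factors in ESCs. In EpiLCs it was 17.4% (Tbx3) to 103% (Prdm14) in total RNA and 21.2% (Klf5) to 173% (Prdm14) in RPF. EpiLC replicate 1 had the highest level of all 3 libraries for 10 of 10 factors in total RNA and for 10 of 10 in RPF. The same library was the highest for 32.2% of all tested genes in total RNA and 32.1% in RPF, and for 43.5% and 47.9% of the other genes called lower. With 1 CPM added, the level of the factors in replicate 1 over the mean of replicates 2 and 3 had a median ratio of 1.67 in total RNA and 2.21 in RPF, against 1.05 and 1.1 over the other genes called lower. In RPF the ratio was smallest for Klf5 (1.37). The other genes called lower were not matched to the factors by size of fall.

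**Figure D3:**
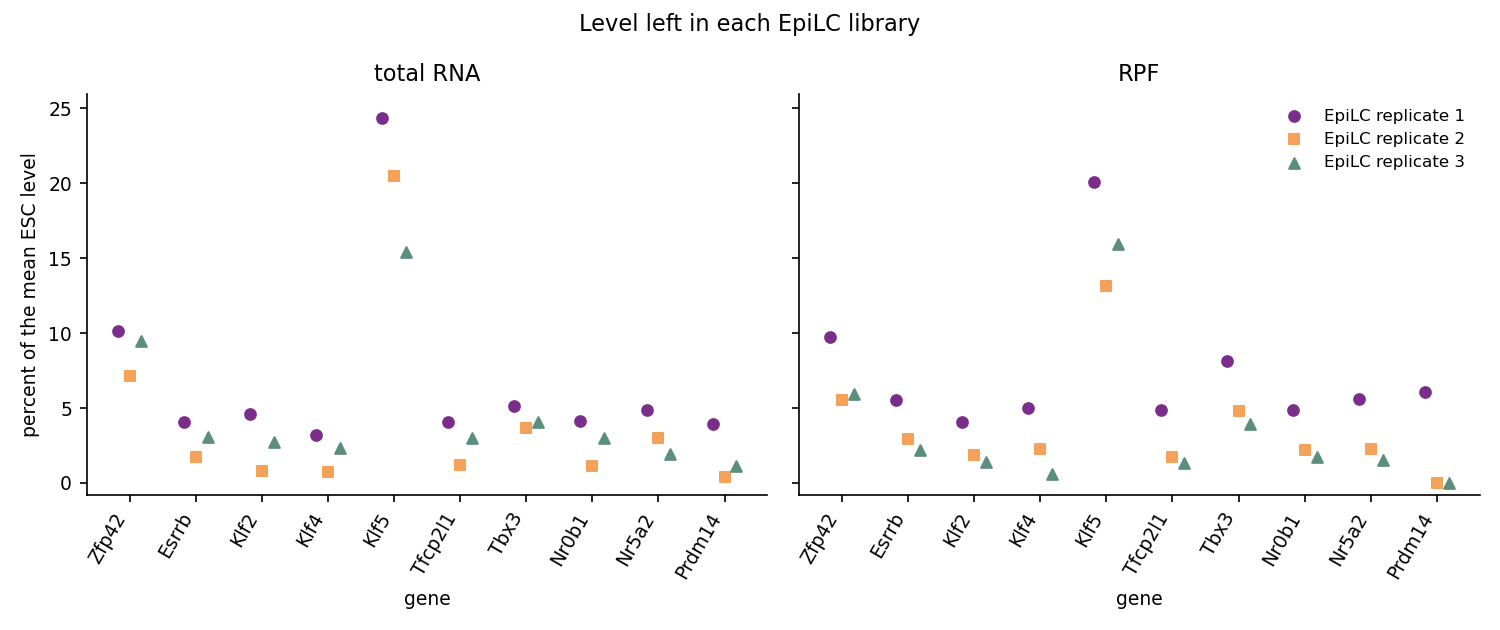
Level of each naive factor in each EpiLC library as a percent of its mean ESC level, in total RNA on the left and in RPF on the right, with a symbol per replicate number. EpiLC replicate 1 is the highest for all 10 factors in both panels, and Klf5, with 15.4% to 24.4% in total RNA, lies above all others.

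With both EpiLC libraries numbered 1 left out, a setting chosen after seeing the data, the median change of the 10 factors was -5.51 in total RNA and -5.73 in RPF, and all 10 were still called lower in both assays. The mean remainder over replicates 2 and 3 was then 17.97% for Klf5 and 8.29% for Zfp42 in total RNA, and 0.76% to 3.88% for the other 8. Summed levels of the fibroblast markers in EpiLC replicates 1 to 3 were 14.9, 13.5 and 12.8 CPM in total RNA and 40.2, 41.1 and 34.3 CPM in RPF. The 10 formative and primed factors summed to 1250.4, 1284 and 1320.3 CPM in EpiLC total RNA and to 1836, 1896 and 1960.1 CPM in EpiLC RPF, lowest in replicate 1 in both assays. The 12 other naive-state genes did not have their highest sum in replicate 1, with 607, 565 and 649 CPM in total RNA and 849.6, 725 and 932 CPM in RPF. In EpiLC total RNA the largest parts came from Dnmt3l (mean 185 CPM), Mybl2 (142 CPM) and Dppa5a (116 CPM). Jam2 (4.53 CPM), Tcl1 (2.25 CPM) and Pecam1 (8.60 CPM), with larger falls, added little. The sum therefore does not show how such genes ranked between the replicates. Among ESC total RNA libraries, replicate 2 was the lowest for 8 of 10 factors, against 33.6% of all tested genes and 54.3% of the other genes called lower. That ESC library had the highest summed level of the 10 formative and primed factors in that group, 273 CPM against 177 and 211 CPM. Whether these libraries differ in the cells they held was not tested.

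Translational efficiency (TE) is the ratio of RPF to total RNA, and its change is the interaction of assay and cell type in the model. None of the 10 factors was called for a TE change by voom and limma, where 0.136% of all tested genes were called higher and 0.119% lower. None had an unadjusted p below 0.05 either, the smallest being 0.0503 for Zfp42, and edgeR and DESeq2 called none. The TE change of Zfp42 was -0.38 ± 0.18 (SE, limma adjusted p 0.361) and that of Klf5 -0.30 ± 0.19. The 95% confidence intervals stayed within 1 on the log2 scale for Zfp42 (-0.76 to 0.0005), Esrrb (-0.53 to 0.67), Klf5 (-0.70 to 0.10), Tbx3 (-0.28 to 0.82) and Nr0b1 (-0.95 to 0.77). They were wider for Klf2 (-1.40 to 0.81), Klf4 (-1.39 to 1.06), Tfcp2l1 (-1.14 to 0.50), Nr5a2 (-1.39 to 0.84) and Prdm14 (-3.34 to 0.70). A change of -1 on the log2 scale lay inside these 5 intervals, and a change of 1 lay inside that of Klf4 alone. The spread between EpiLC libraries was above counting error, for Tfcp2l1 a coefficient of variation of 51.9% against 8.0% in total RNA and 73.0% against 11.3% in RPF. The signs of 8 of the 10 TE changes turned under at least 1 alternative setting, the exceptions being Zfp42 and Klf5.

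TE levels themselves differed between the factors. In ESCs Klf5 had a ratio of RPF to total RNA of 6.85 (5.93 to 7.48 in 3 pairs of libraries), above 99.8% of tested genes. Klf2 followed with 3.88 (3.66 to 4.08), above 99.3% of them, then Esrrb with 2.25 (2.05 to 2.36) and Tbx3 with 1.92 (1.72 to 2.27). Nr0b1 (1.64), Zfp42 (1.53), Nr5a2 (1.44), Tfcp2l1 (1.35) and Prdm14 (1.33) came next. The lowest was Klf4 with 1.1 (0.953 to 1.3), above 58.1% of tested genes. The 3 Krüppel-like factors thus spanned the whole range of the group, and their ranges over pairs did not overlap. In EpiLCs Klf5 had 5.58 (4.38 to 7.05) and Klf2 3.87 (1.94 to 8.79), and the ranges of the other factors ran from narrow, as for Zfp42 (0.96 to 1.47) and Nr5a2 (1.08 to 1.65), to wide, as for Klf4 (0.305 to 3.41). The pairs join libraries by number only, and for Prdm14 the EpiLC ratios of pairs 2 and 3 rest on 0 RPF reads. Those of Nr5a2 in pairs 2 and 3 rest on 5 and 7 RPF reads, so its narrow range does not show a well measured ratio. The 8.79 of Klf2 rests on 4 total RNA reads, and the 3.41 and 0.305 of Klf4 on 6 total RNA and 5 RPF reads.

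**Figure D4:**
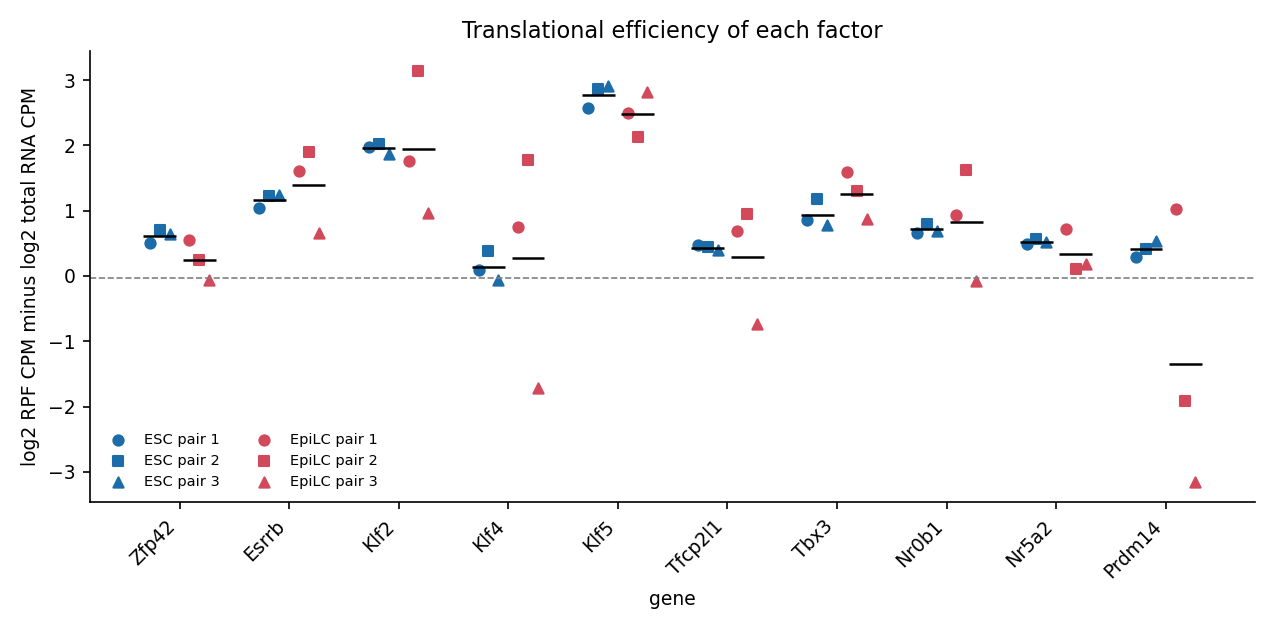
TE of each naive factor as log2 RPF CPM minus log2 total RNA CPM for 3 pairs of libraries in ESC (blue) and EpiLC (red), with a bar at the mean and a dashed line at the ESC median of all tested genes. Klf5 and Klf2 have the highest ESC means, 2.78 and 1.96, and the EpiLC symbols of Klf4 and Prdm14 spread the most.

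Most of the other naive-state genes listed were called lower too. That list, like those that follow, was chosen with earlier results of these data known. For this and the lists that follow, the shares over all tested genes were 9.7% lower and 14.6% higher in total RNA. In RPF they were 10.6% lower and 15.4% higher. Of 12 other naive-state genes, all tested, 9 were called lower and 0 higher in total RNA, and 10 were called lower in RPF, with median changes of -2.71 and -2.80. The largest falls were those of Jam2, a junctional adhesion molecule, with -5.74 in total RNA and -6.25 in RPF, and of Tcl1, a coactivator of AKT, with -5.04 and -4.99. Dppa3 had 0.92 and 0.76 on the log2 scale and was not called. Gbx2 had -1.17 and -1.19 and was called in RPF and not in total RNA, calls that held in 21 and 13 of 23 alternatives.

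In the LIF and STAT3 pathway 4 of 7 tested genes were called lower in each assay and 0 higher, with median changes of -1.12 in total RNA and -1.32 in RPF. Lifr, the LIF receptor, had changes of -2.59 and -2.80, and Socs3, a feedback inhibitor that STAT3 induces, had -2.42 and -2.31. Stat3 and Il6st, the shared signalling receptor, were the other two called lower. The kinase genes Jak1 (0.11 and -0.05), Jak2 (0.74 and 0.80) and Pim1 (0.74 and 0.85) were not called. The rises of Jak2 and Pim1 had a limma adjusted p under 0.05 in both assays and stayed under the limit of 1. In the Wnt arm 2 of 8 genes were called higher and 0 lower in each assay. Lef1 rose by 3.32 and 4.32 and Tcf7 by 1.02 and 1.12, the total RNA value of Tcf7 being so close to the limit of 1 that its call held in 11 of 23 alternatives. Tcf7l1, the repressor that GSK3 inhibition removes, had 0.29 and 0.33 and was not called.

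The FGF and ERK arm held genes called in both directions. Of its 10 genes, 4 were called higher and 1 lower in total RNA, and 5 higher and 1 lower in RPF. The ligand Fgf5 rose by 5.76 and 7.35, from ESC means of 0.812 CPM in total RNA and 0.171 CPM in RPF. The immediate early gene Egr1 rose by 4.53 and 6.52, from ESC means of 0.238 CPM in total RNA and 0.455 CPM in RPF. Both Egr1 levels and the Fgf5 level in RPF lie at or near the floor of 3 counts. The ESC total RNA level of Fgf5 had an SD of 1.13 CPM (n = 3), larger than its mean. Over the alternatives the changes ran from 4.66 to 6.88 and from 6.50 to 8.32 for Fgf5 and from 3.48 to 5.18 and from 5.07 to 7.59 for Egr1. The ligand Fgf4, also among the naive-state genes, was the gene called lower, with -1.02 and -1.01, values near the limit, and its call held in 21 and 19 of 23 alternatives. Among the 10 formative and primed factors 8 were called higher and 0 lower in each assay, with median changes of 3.00 and 3.59. Fgf5 and Sox3, a SOXB1 factor, led, with Sox3 at 4.83 and 5.27, and Foxd3 and Etv4 were not called.

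Of the 6 core pluripotency factors, 1 was called higher and 2 lower in each assay. Sox2 had changes of -2.72 and -2.96, smaller in size than those of 9 of the 10 naive factors in both assays, and Nanog had -1.58 and -1.61, smaller than those of all 10. Utf1 rose by 1.34 and 1.15, a call that held in 21 of 23 alternatives in each assay. Pou5f1 had -0.65 and -0.50 and was not called. Across the 35 paralogs of the naive factors, 22 were tested, of which 3 were called higher and 3 lower in total RNA, and 3 higher and 4 lower in RPF. Among all tested genes, 14.6% were called higher and 9.7% lower in total RNA, and 15.4% and 10.6% in RPF. Median changes of the paralogs were -0.18 and 0.005. The Krüppel-like genes Klf6 (1.65 and 1.85) and Klf7 (1.37 and 1.82) rose, while Klf8 (-1.95 and -2.40) and Prdm16 (-2.37 and -3.01) fell. The RPF change of Prdm16, with an EpiLC mean of 1.74 ± 1.66 CPM (SD, n = 3), ran from -3.87 to -1.18 over the alternatives. No gene of any of these lists was called for TE by voom and limma.

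**Figure D5:**
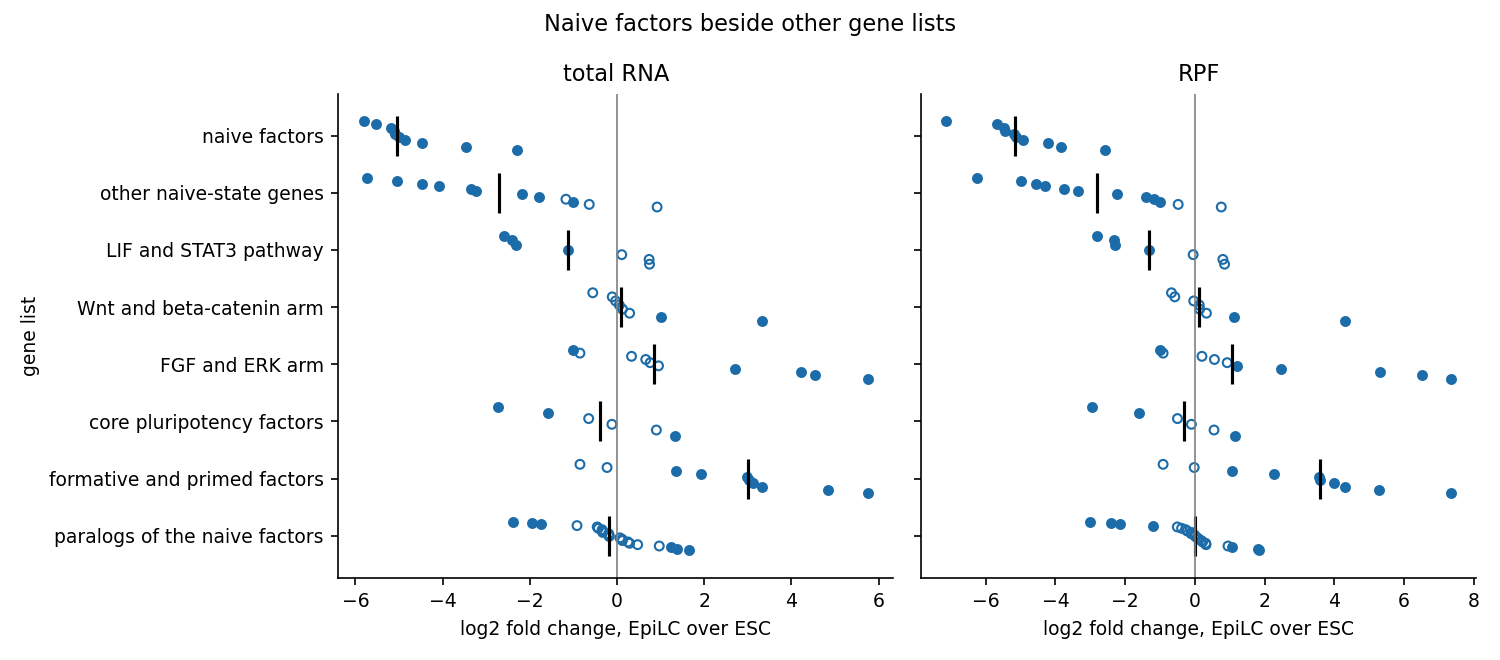
Log2 fold change (EpiLC over ESC) of each tested gene in 8 gene lists, total RNA on the left and RPF on the right, with filled symbols for called genes, open symbols for the rest and a black bar at the list median. The naive factors have medians of -5.05 and -5.16, the formative and primed factors 3.00 and 3.59, and the paralogs of the naive factors lie on both sides of 0.

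Genes outside the group were ranked by how closely their log2 CPM followed the mean centred profile of the 10 factors over the 12 libraries. The closest were Mylpf, a myosin light chain (Pearson's r 0.996), Mapt, the tau protein (0.995), Ooep, an oocyte-expressed factor (0.995), Tcl1 (0.995) and Irak3, a kinase-like regulator of interleukin-1 signalling (0.994). The 12 points fall in 2 clusters, ESC and EpiLC, and share libraries, so r describes mainly the step between cell types. An r above 0.99 was found for 17 of 11740 genes and an r above 0.95 for 384. Mylpf fell from 167 to 4.9 CPM in total RNA, a change of -4.99, and Mapt from 40.3 to 1.17 CPM, a change of -4.98. Ooep and Irak3 had smaller total RNA changes, -3.36 and -2.44.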

How the data were processed

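The authors deposited raw counts per gene for 12 libraries made with the TruSeq Ribosome Profiling kit. Per the file headers, the submitters' processing notes and the study's methods, cutadapt version 1.14 removed adapters, uniquely mapped reads were kept with STAR version 2.5.3a on mm10, and featureCounts version 1.5.3 assigned the 5′ end of each sense read to coding sequence without its first 45 nt. Treatment of PCR duplicates is not given in the sources used here. The deposited table also gives the counted length (another unit, in bases), used for levels per length. No column of values was left without a sample.

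Groups and replicate numbers came from the sample titles. The 10 genes and all gene lists were chosen with earlier results of these data known. None of the 10 shares counted bases with another gene. Genes with at least 3 CPM in at least 3 libraries were kept, and 4 groups were fitted in 1 model with TMM factors (edgeR version 4.0.16) and tested with voom in limma (version 3.58.1, under R 4.3.3), without a replicate block. Benjamini-Hochberg adjustment covered all 11750 genes. The study names limma, the filter and the threshold, but not voom or TMM. TE levels used log2 CPM with a prior count of 0.5. From each list, up to 2 of the largest rises and 2 of the largest falls among called genes are named, and for likeness the 5 closest genes. Other genes of the lists were named after their values were seen. Same-group libraries differed beyond sampling noise (chi-square per degree of freedom 2.46 to 7.19). The voom and limma fits for RPF and TE alone were tested on simulated counts, with changes placed in RPF only. Falls in both assays to few reads were not simulated. Alternatives were edgeR, DESeq2 version 1.42.0, other scalings and filters, a GC correction, blocks and leaving out libraries.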

Additional observations from a re-analysis of the deposited data

How the results depend on the processing

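All 460 alternative values of the total RNA and RPF changes of the 10 factors kept their sign and call, as did the 72 counts of factors called. Of the TE changes, 21 of 230 alternative values turned sign, in 8 factors, none of them called. Counting error alone was 5.24% to 43.3% of a factor's EpiLC level, below the spread between EpiLC libraries. Klf4 had a TE change of 0.13 with edgeR, 0.31 with DESeq2 and 0.30 with a block joining RPF and total RNA of a number. Nr0b1 had 0.070 with DESeq2 and 0.062 with that block, Prdm14 0.17 with DESeq2 and Nr5a2 0.0062 with that block. Esrrb had -0.015 with both EpiLC libraries numbered 1 left out, a setting chosen after seeing the data. With 1 library left out the TE change ran from -0.37 to 0.48 for Esrrb, -0.81 to 0.42 for Klf2, -0.97 to 0.85 for Klf4, -0.97 to 0.25 for Tfcp2l1, -0.093 to 0.59 for Tbx3, -0.59 to 0.42 for Nr0b1 and -0.86 to 0.26 for Nr5a2. The cause was not tested.

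Same-numbered libraries had deviations that correlated at -0.18 to 0.16, over 0.1 in 1 of 12 pairs. Such correlations cannot settle whether libraries of the same number share a culture. The main model paired no libraries, and the block joining RPF and total RNA of a number was an alternative for TE. With the replicate block 10 factors were called lower in total RNA and in RPF and 0 for TE, while all-gene TE calls went from 16 higher and 14 lower to 30 and 23. DESeq2 gave 35 and 24, the GC correction with replicate block 37 higher, and the absence of a fold limit 67 and 74. With 1 library left out the TE calls lower ranged from 6 (without ESC total RNA replicate 3 or EpiLC RPF replicate 3) to 22 (without ESC RPF replicate 3) and those higher from 13 to 38 (without ESC total RNA replicate 1), and without both EpiLC libraries numbered 1 they were 9 lower. For total RNA, no filter gave 2685 higher and 1756 lower of 17067 genes, and no fold limit 4068 and 3612. For RPF, no fold limit gave 3660 and 3369.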
